A study of Mus musculus with 12 samples.

Results

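Peaks of methylated RNA immunoprecipitation sequencing (MeRIP-Seq) that lie in the 5' untranslated region (5'UTR) or at the start codon of hippocampal transcripts were examined in aged and young mice. Peaks were taken from the authors' table of age-associated peaks. A peak was included when at least 1 of its annotation rows was of the type 5'UTR or Start codon, which gave 232 of the 529 unique peaks listed. Of these, 117 carried a Start codon row (start codon peaks) and 115 did not (5'UTR-only peaks). The 232 peaks were annotated to 249 gene names, 24 peaks lay in more than 1 gene, and 22 had rows on both strands, where the reads of overlapping genes cannot be told apart. The groups were 20-month-old (aged) and 3-month-old (young) male C57BL/6 mice. Each age had 3 immunoprecipitate libraries, made from poly(A) RNA of individual hippocampi that had been selected after a qPCR pre-check. The input libraries were not analysed here, so that methylation, transcript level and library yield cannot be told apart. In whole tissue, fewer cells of a type and less RNA per cell cannot be told apart either.

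N6-methyladenosine (m6A) is the most abundant internal modification of mRNA. It is added by the METTL3-METTL14 complex, mostly within the DRACH sequence, and is most frequent near stop codons and in the 3'UTR. The leader of an mRNA is the region that the small ribosomal subunit scans before it begins translation at the start codon, and m6A there has been linked to cap-independent translation. The base next to the cap can carry a related mark, m6Am, that m6A antibodies also bind, so that a peak at the very start of a transcript can hold either mark.

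Sequences are shown for the 5 members whose fold change was below 0 and, beside them, for 7 members above 0 with large fold changes, small p-values or, for Eif6, a place in the study's text. They are 25-base windows read from GRCm38 (mm10) on the annotated strand, 5' to 3'. In the start codon windows, the capitals mark the annotated ATG. Kcnj16, Kctd4 and Rbm6 had fold changes below 0, and Hapln2, Adcy2, Heca and Kcnk3 above 0.
Kcnj16, plus strand, chr11:111024502-111024526: gaccaagaaagaATGagctattacg
Kctd4, plus strand, chr14:75962579-75962603: agcatcttgaaaATGgagcgtaaaa
Rbm6, minus strand, chr9:107853039-107853063: gaaggaccacctATGgactacaggg
Hapln2, minus strand, chr3:88024405-88024429: gctgacaccatcATGccaagcagga
Adcy2, minus strand, chr13:68999283-68999307: cgagccgccccgATGtggcaggagg
Heca, minus strand, chr10:17947770-17947794: cgggccggggagATGcccaacccca
Kcnk3, plus strand, chr5:30588305-30588329: ccgggagggacgATGaagcggcaga

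In 5'UTR-only peaks, the DRACH match nearest to the peak centre is shown, with its letters in capitals. Gpr61 and B3galt2 had fold changes below 0, and Mapkap1, Crebl2 and Eif6 above 0.
Gpr61, minus strand, chr3:108151746-108151770: tggagaggggAGACAggaggattta
B3galt2, plus strand, chr1:143640891-143640915: ctgaaacactAAACCacagctctgc
Mapkap1, plus strand, chr2:34406958-34406982: tgggccggtaGGACTgccgaggact
Crebl2, plus strand, chr6:134830291-134830315: tcagggaagcGAACTgttaggcgaa
Eif6, minus strand, chr2:155826577-155826601: cagggcgagaGGACTtggggcagga

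Library sizes, recovered by a fit to the deposited abundance column, were 12534186, 6158014 and 8736248 for aged libraries 1 to 3 and 14914095, 12814321 and 16084217 for young libraries 1 to 3. They are the sizes implied by that column, and they were not checked against the sequenced read totals. Listed peaks held 5.56%, 5.24% and 5.73% of these sizes in the aged libraries and 3.60%, 5.47% and 2.89% in the young libraries. Young library 2 therefore stood apart from the other young libraries and lay within the aged range. Values without it are given for the calls, for the overall and gene group medians and for the peaks described one by one. Listed peaks were selected by the authors for an age difference on these same libraries, so their directions and p-values are no independent evidence. For the same reason the tissue label could not be checked against markers. Among the fixed cell type markers, 0 of 8 neuronal, 3 of 8 oligodendrocyte lineage, 0 of 5 astrocyte, 2 of 6 microglial, 0 of 3 endothelial and mural and 1 of 4 choroid plexus genes had a listed peak, and Hapln2 alone had a 5'UTR or start codon peak.

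Nearly all of the 5'UTR and start codon peaks had more immunoprecipitated reads in the aged hippocampus, and none passed the test. The log2 fold change (aged over young) was above 0 for 227 of 232 peaks, a share to be read against 78.8% of all listed peaks, and below 0 for 5. Its median was 0.64 (quartiles 0.56 and 0.74), beside 0.59 over all listed peaks. The values ran from -0.90 to 1.14, and none lay closer to 0 than 0.40. In edgeR's quasi-likelihood test, 0 of the 232 passed an adjusted p of 0.05 (lowest adjusted p = 0.167), where 1.13% of all listed peaks did. At an unadjusted p under 0.05 there were 50 above 0 (21.6%, background 17.2%) and 1 below 0 (background 9.07%). These backgrounds count listed peaks of both directions. Of the peaks above 0 alone, 50 of 227 members and 41 of 190 other listed peaks were under 0.05, which are nearly equal shares. The edgeR likelihood ratio test and the DESeq2 Wald test also called 0 of the 232 members, where each called 2.27% of all listed peaks. The authors' likelihood ratio test came with an option to remove unwanted variation, which these tests lacked.

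The median level per peak, in reads scaled to library size (CPM), was 48.9, 48.6 and 60.8 in aged libraries 1 to 3, against 31.2, 45.4 and 21.2 in young libraries 1 to 3. Young library 2 was close to the aged libraries and young library 3 was the lowest. The median coefficient of variation was 13% among aged and 40.9% among young libraries. All 3 aged libraries lay above all 3 young libraries at 100 peaks (43.1%), where 32.1% of all listed peaks did. They lay below them at 2 peaks (background 14.9%). These backgrounds count listed peaks of both directions. Of the peaks above 0 alone, aged libraries lay wholly above young libraries at 100 of 227 members and 70 of 190 other listed peaks. Young libraries 1 and 3 were both below every aged library at 224 of 232 peaks (410 of all 529 listed peaks). In contrast, young library 2 was below every aged library at 102. It was above the lowest aged library at 130 peaks (354 of all 529). Young library 3 was the lowest of the 6 at 196 peaks (359 of all 529). Aged library 3 was the highest at 137 (199 of all 529).

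**Figure D1:**
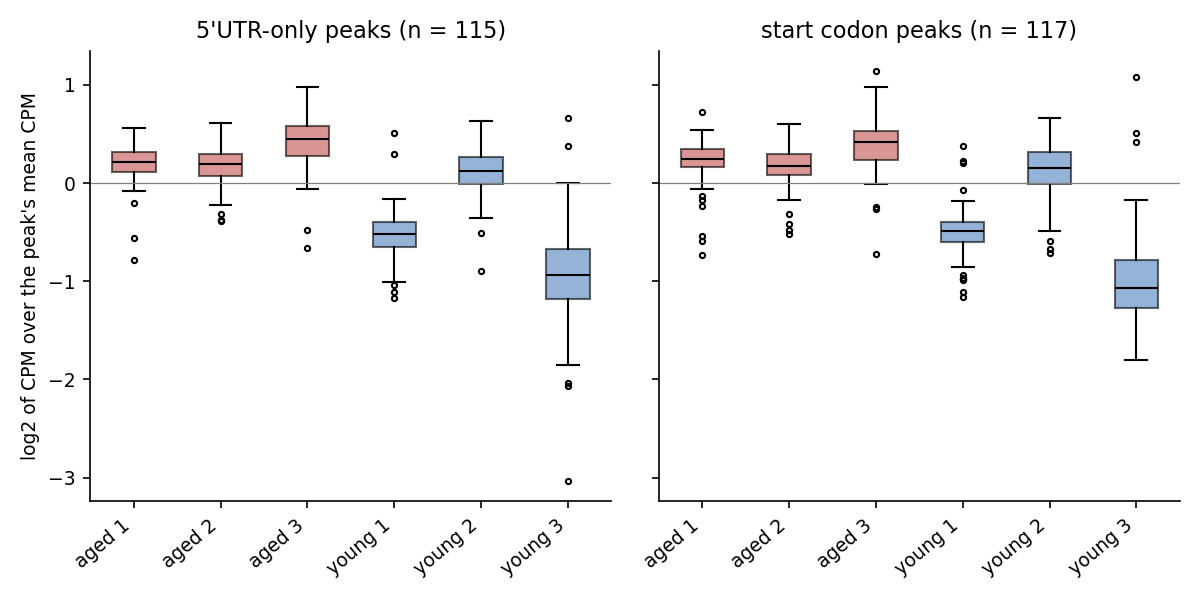
Level of each 5'UTR-only and start codon peak in each library, as the log2 of its CPM over the peak's mean CPM across the 6 libraries. Boxes show the median and quartiles over peaks, whiskers reach the farthest peak within 1.5 box lengths, aged libraries are red and young libraries blue; young library 2 sits with the aged libraries in both classes and young library 3 is lowest.

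Without young library 2, 225 peaks were called above 0 and 5 below 0 in edgeR's quasi-likelihood test, and the median log2 fold change was 0.99. Of all listed peaks, 77.5% were then called above 0 and 19.5% below 0, so that nearly the whole list passed. The 2 members not called were in Wdfy3 and Clk3. Without young library 3, 0 were called (lowest adjusted p = 0.229, edgeR; background 2.65%) and the median log2 fold change was 0.44. A factor estimated from the residuals of the fit, which set young library 2 against young library 3, gave 227 calls above 0 (background 78.6%) and 5 below 0 (background 20.8%). Scaling on the listed peaks themselves moved the median of all of them from 0.59 to 0.14 with column totals, 0.03 with TMM and 0.02 with DESeq2 size factors. Members then had medians of 0.19, 0.07 and 0.06, and 6, 63 and 72 of the 232 were below 0. There were 2 calls below 0 with TMM (background 16.4%) and 1 with DESeq2 size factors (background 8.51%). A first principal component held 88.3% of the variance of the members, with scores of 0.25, 0.21 and 0.40 for the aged libraries and -0.33, 0.22 and -0.76 for the young libraries.

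**Figure D2:**
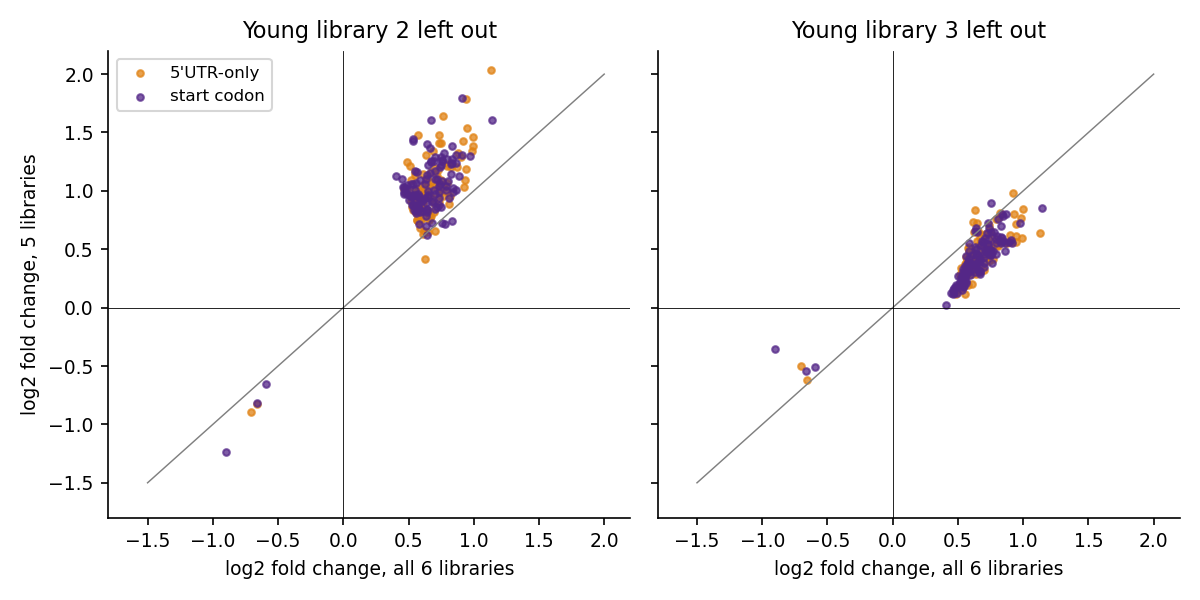
Log2 fold change (aged over young) of each 5'UTR-only and start codon peak from 5 libraries (vertical axis) against that from all 6 (horizontal axis), with young library 2 left out on the left and young library 3 left out on the right. The grey line marks equal values; the median was 0.99 without young library 2 and 0.44 without young library 3.

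The share of listed reads that fell in 5'UTR and start codon peaks depends on no scaling between libraries. It was 41.9%, 42.6% and 45.5% in aged libraries and 38.7%, 41.4% and 34.1% in young libraries. Every aged library was above every young library, and the means were 43.3% ± 1.88 and 38.1% ± 3.67 (SD, n = 3 each). The difference of 5.25 percentage points had p = 0.1 in a two-sided exact permutation test over the 6 libraries, the smallest p that 3 against 3 allows. It was 6.90 points without young library 2 and 3.28 points without young library 3. The list was selected for an age difference on these same libraries. Log2 fold changes were above 0 at 227 of 232 members and at 190 of 297 other listed peaks. A higher member share with age was thus largely built into the selection, and its p-value is no independent evidence.

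Start codon peaks and 5'UTR-only peaks had nearly the same median log2 fold change. The median log2 fold change was 0.64 for start codon peaks (114 above 0 and 3 below) and 0.63 for 5'UTR-only peaks (113 above 0 and 2 below). Median CPM was 57.9, 58.9 and 66.2 in aged and 35.6, 57.4 and 24.7 in young libraries for start codon peaks, and 41.3, 42.1 and 49.6 in aged and 26.5, 38.8 and 20.1 in young libraries for 5'UTR-only peaks. Aged libraries lay wholly above young libraries at 47 start codon peaks (40.2%) and 53 5'UTR-only peaks (46.1%), where 32.1% of all listed peaks did. This background counts listed peaks below 0 too. In each library, the median log2 level of start codon peaks minus that of 5'UTR-only peaks was 0.03, -0.02 and -0.03 in aged and 0.03, 0.02 and -0.14 in young libraries. The aged mean exceeded the young mean by 0.02 (exact permutation p = 0.8, two-sided). This difference turned to -0.03 without young library 3 and to -0.01 with means over peaks. Start codon peaks held 55.0%, 55.3% and 52.7% of the member reads in aged and 55.1%, 54.1% and 55.4% in young libraries, with a difference of -0.56 points (exact permutation p = 0.6, two-sided). The design did not detect a difference between the classes, and its smallest possible p is 0.1. Both classes came from a list that the authors cut by fold change on these same libraries. Similar fold changes in the classes were thus largely built into the selection, and no conclusion is drawn from them.

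The 5 peaks below 0 were in Kcnj16, Gpr61, B3galt2, Rbm6 and Kctd4. Kcnj16, an inwardly rectifying potassium channel subunit, had a start codon peak with 9.57, 11.2 and 8.47 CPM in aged libraries and 16.1, 8.74 and 29.6 CPM in young libraries. Its libraries overlapped, since young library 2 fell within the aged range. The log2 fold change was -0.90 ± 0.41 (SE), with an unadjusted p of 0.0456 and an adjusted p of 0.167 in edgeR, and it was -1.23 without young library 2 and -0.36 without young library 3. Rbm6, an RNA-binding protein of splicing, had 34.1, 50.5 and 47.4 CPM in aged and 73.8, 54.3 and 81.01 CPM in young libraries. Kctd4, which holds a potassium channel tetramerisation domain, had 26.9, 29.1 and 40.7 CPM in aged and 47.1, 44.6 and 54.0 CPM in young libraries. In these 2 start codon peaks every aged library was below every young library (log2 fold changes of -0.66 ± 0.33 and -0.59 ± 0.31). Gpr61, an orphan G protein-coupled receptor, had 10.3, 17.5 and 12.7 CPM in aged and 21.8, 16.0 and 28.0 CPM in young libraries. B3galt2, a galactosyltransferase, had 7.90, 11.9 and 7.33 CPM in aged and 16.6, 10.9 and 15.05 CPM in young libraries. In both 5'UTR-only peaks the ages overlapped at aged library 2 and young library 2. At all 5 peaks young library 2 was the lowest young library, the reverse of its place among the peaks above 0. Without it the log2 fold changes were -0.82 for Rbm6, -0.65 for Kctd4, -0.90 for Gpr61 and -0.82 for B3galt2.

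Hapln2, a link protein of the extracellular matrix at nodes of Ranvier made by oligodendrocytes, had the largest fold change. Its start codon peak had 32.1, 28.9 and 19.3 CPM in aged and 10.8, 18.9 and 6.78 CPM in young libraries. The ages did not overlap, with aged library 3 just above young library 2. The log2 fold change was 1.14 ± 0.39 (SE, adjusted p = 0.167 in edgeR), 1.61 without young library 2 and 0.85 without young library 3. Among the other oligodendrocyte lineage markers listed, the Mobp 3'UTR peak had a log2 fold change of 0.71, and the 4 Gpr17 3'UTR peaks had values from -1.05 to -0.65. The summed level of the listed oligodendrocyte peaks was 1299 to 1898 CPM in aged and 1022 to 1576 CPM in young libraries. Of this, the Mobp peak alone held 1050 to 1630 CPM in aged and 486 to 1200 CPM in young libraries. The other 5 markers had no listed peak, and the part of cell content in the Hapln2 value was not tested.

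Mapkap1, a subunit of the mTORC2 kinase complex, had 24.1, 25.2 and 26.9 CPM in aged and 13.8, 19.8 and 4.66 CPM in young libraries. Adcy2, an adenylyl cyclase, had 49.3, 48.2 and 86.3 CPM in aged and 30.6, 43.8 and 19.3 CPM in young libraries. Both were higher in every aged library than in any young library (log2 fold changes of 0.99 and 0.97). The peak shared by Bcl7c, a subunit of the BAF chromatin remodelling complex, and Mir762 had 30.2, 42.1 and 41.6 CPM in aged and 14.1, 28.0 and 14.9 CPM in young libraries. Other large values were 0.98 in Enah, an actin regulator, 0.95 in B4galt2, a galactosyltransferase, and 0.94 in Smurf2, a ubiquitin ligase whose peak also lay in Gm27322. The ages overlapped in Enah and Smurf2, where young library 2 (45.03 and 22.08 CPM) was above aged library 2 (43.36 and 21.92 CPM). In B4galt2 they were barely apart, with 85.85 CPM in aged library 1 and 85.76 CPM in young library 2. Without young library 2 these log2 fold changes were 1.46 for Mapkap1, 1.299 for Adcy2, 1.38 for Bcl7c, 1.34 for Enah, 1.54 for B4galt2 and 1.79 for Smurf2. Without young library 3 they were 0.59 for Mapkap1, 0.72 for Adcy2, 0.85 for Bcl7c, 0.77 for Enah, 0.61 for B4galt2 and 0.57 for Smurf2.

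**Figure D3:**
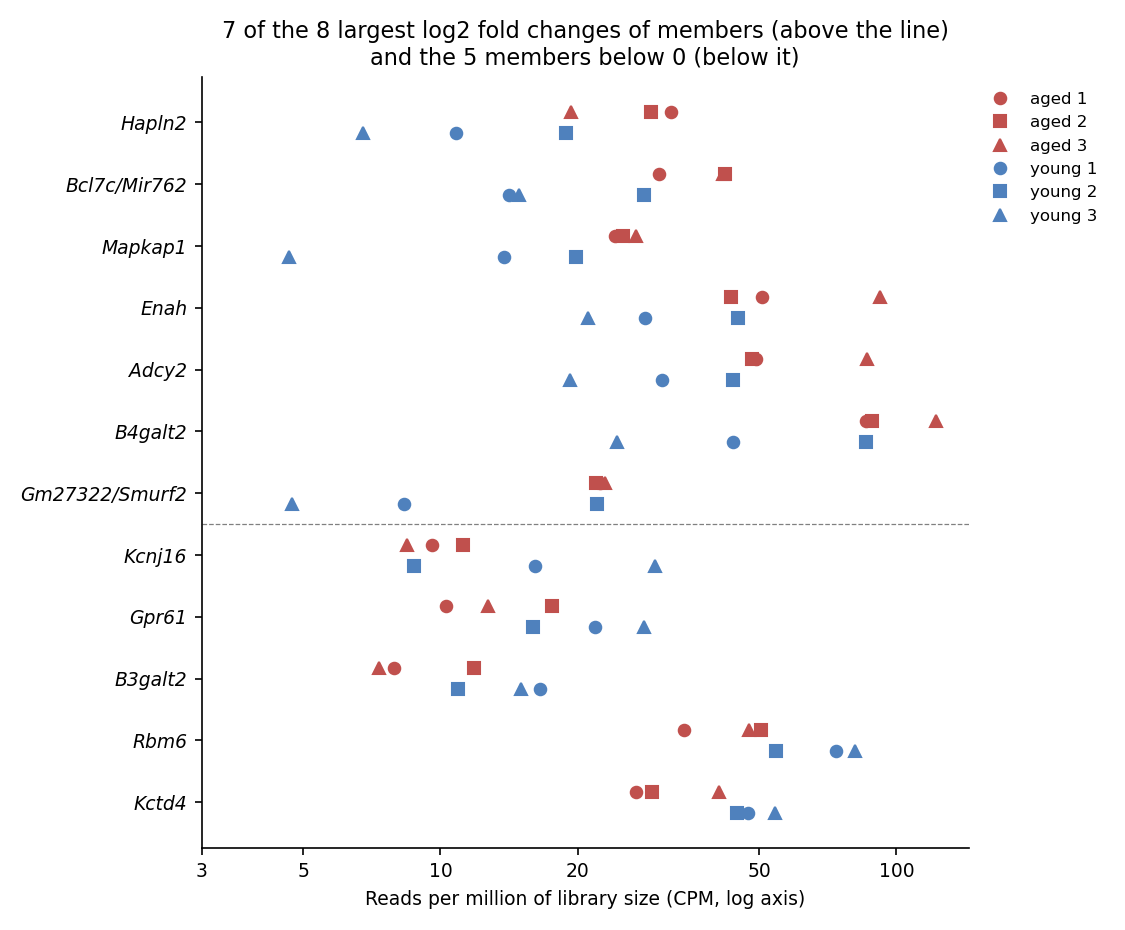
CPM (log axis) in each aged (red) and young (blue) library at 7 of the 8 peaks with the largest log2 fold changes, above the dashed line, and at the 5 peaks below 0, under it; symbols mark the replicate number. Young library 2 (blue squares) is the highest young library at each of the 7 and the lowest young library at each of the 5.

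Besides Hapln2 and Bcl7c, the members with the smallest p-values were in Crebl2, Hipk3, Heca, Magi3, Kcnk3 and Hunk. Crebl2, a protein related to CREB transcription factors, had 57.4, 61.2 and 59.4 CPM in aged and 30.2, 37.9 and 25.4 CPM in young libraries. Its log2 fold change was 0.93 ± 0.31 (SE; unadjusted p = 0.00932, adjusted p = 0.167, edgeR), or 1.09 without young library 2 and 0.80 without young library 3. Hunk, a protein kinase, had 61.4, 57.2 and 66.3 CPM in aged and 33.3, 38.8 and 33.2 CPM in young libraries. Heca had 65.5, 65.6 and 80.5 CPM in aged and 34.8, 46.0 and 35.3 CPM in young libraries. The log2 fold changes were 0.81 for Hunk and 0.87 for Heca. Magi3, a synaptic scaffold protein, Hipk3, a protein kinase, and Kcnk3, a background potassium channel whose peak also lay in Gm9899, had values of 0.81, 0.94 and 0.84. Without young library 2 the values were 0.89 for Hunk, 1.01 for Heca, 0.94 for Magi3, 1.19 for Hipk3 and 1.02 for Kcnk3. At these 6 peaks every aged library was above every young library.

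The peaks with the most reads were in Olfm1, Drap1, Agap2, Gsk3a and Gnai2. Olfm1, a secreted olfactomedin of neurons, had 1854, 1581 and 2638 CPM in aged and 990, 2178 and 609 CPM in young libraries. Young library 2 was above aged libraries 1 and 2 there, and the log2 fold change was 0.69 ± 0.50 (SE), or 1.34 without young library 2 and 0.35 without young library 3. Drap1, a transcriptional corepressor, had 968, 885 and 871 CPM in aged and 512, 721 and 455 CPM in young libraries, with no overlap (0.69 ± 0.39). The values were 0.60 for Gsk3a, a glycogen synthase kinase, 0.54 for Gnai2, an inhibitory G protein subunit, and 0.50 for Agap2, a GTPase-activating protein for Arf. Without young library 2 the log2 fold changes were 0.91 for Drap1, 0.91 for Gsk3a, 0.84 for Gnai2 and 0.92 for Agap2, and without young library 3 they were 0.56 for Drap1, 0.38 for Gsk3a, 0.28 for Gnai2 and 0.27 for Agap2. Eif6, which keeps ribosomal subunits apart, had 158, 152 and 140 CPM in aged and 102, 170 and 50.5 CPM in young libraries. Its young library 2 was above all aged libraries, and its log2 fold change was 0.48 ± 0.42 (SE), or 0.98 without young library 2 and 0.14 without young library 3. The values of Agap2, Gnai2 and Eif6 turned negative with TMM scaling (-0.05, -0.02 and -0.02).

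Gene groups were described by their member peaks, and no peak of any group passed edgeR's test. Of all 232 members, 227 were above 0 with the recovered library sizes, and the median log2 fold change was 0.64. A group wholly above 0 therefore does not stand apart from the members as a whole, and no group was tested against the others. The directions below hold for the recovered library sizes and for column totals. With TMM, 18 of 24 ubiquitin and SUMO, 12 of 15 chromatin, 13 of 14 transcription factor, 10 of 18 kinase and phosphatase, 14 of 19 small GTPase, 14 of 18 synaptic, 7 of 9 solute carrier, 7 of 10 ion channel, 4 of 9 G protein and cyclic AMP signalling, 8 of 11 glycan and 5 of 8 RNA processing peaks were above 0, and the median of G protein and cyclic AMP signalling was -0.01. Without young library 2 the group medians were 0.87 to 1.15, and without young library 3 they were 0.31 to 0.58, with the same number of peaks above 0 in each group. All 24 peaks of ubiquitin and SUMO pathway genes were above 0 (median 0.62). Examples were Trim33 (0.75) and Mycbp2 (0.73), both ubiquitin ligases. All 18 peaks of protein kinases and phosphatases were above 0 (median 0.63), among them Mast2 (0.75) and Ctdspl (0.66). All 15 chromatin peaks (median 0.66), all 14 transcription factor peaks (0.73), all 19 peaks of small GTPases and their regulators (0.64), all 18 peaks of synaptic receptors, scaffolds and vesicle proteins (0.65) and all 9 solute carrier peaks (0.64) were likewise above 0. They included Msl2 (0.92), Nfyb (0.90), Agap1 (0.79), Rhoq (0.80), Nrg3 (0.83) and Slc9a7 (0.64).

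The remaining groups each held 1 of the 5 member peaks below 0, which does not set a group apart either. Kctd4 was on no list. Of 10 ion channel peaks, 9 were above 0 (median 0.67), including the calcium channel subunit Cacna1b (0.83) and the potassium channel subunit Kcnmb4 (0.87), with Kcnj16 as the exception. Of 9 peaks in G protein and cyclic AMP signalling, 8 were above 0 (median 0.59), including the phosphodiesterase Pde8b (0.79) and the cannabinoid receptor Cnr1 (0.65, but -0.01 with TMM and -0.03 with DESeq2 size factors), with Gpr61 as the exception. Of 11 peaks of glycan and proteoglycan enzymes, 10 were above 0 (median 0.64), including Chst11 (0.77) and Nus1 (0.70), with B3galt2 as the exception. Of 8 peaks in RNA processing and translation, 7 were above 0 (median 0.75), including Mex3b (0.92), Ell2 (0.84) and Clk3 (0.84), with Rbm6 as the exception. Of 23 m6A writers, erasers and readers, 1 had a listed peak and none had a 5'UTR or start codon peak.

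The sequence under the peaks was rich in G and C. Median GC content was 76.7% (quartiles 72.5% and 79.7%), with 77.0% in start codon and 76.2% in 5'UTR-only peaks, against 58.7% in the other listed peaks. Windows of 200 bases in 21586 protein-coding genes had medians of 56.0% around the start codon and 60.5% after the transcription start. GC content was over 70% in 194 of 232 members, compared with 14.9% and 21.8% of these windows. CG dinucleotides had a median of 13.5 per 100 bases in members and 2.5 in the other listed peaks. These peaks had been selected by the authors, and the GC content of their full peak set was not used here.

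With the recovered library sizes, all 5 peaks below 0 had a GC content under 50%, from 35.0% in Kcnj16 to 47.4% in Rbm6. Among the 8 members under 50%, 5 were below 0, and the 3 above 0 were in Zdhhc5, Aebp2 and Dennd2a. None of the 30 members from 50% to 70% and none of the 194 over 70% were below 0. The other listed peaks showed the same order, with 79 of 93 below 0 under 50% GC, 28 of 137 from 50% to 70% and 0 of 67 over 70%. Across the 232 members, the log2 fold change and GC content had a Pearson r of 0.52 and a Spearman rho of 0.27, where all points share the same 6 libraries. In the 227 members above 0, r was 0.11 and rho was 0.22. Over the 232 members, r was 0.49 and rho 0.18 without young library 2, and r was 0.36 and rho 0.17 without young library 3. The 5 peaks below 0 in either fit were all under 50% GC. The level in single libraries also moved with GC content. In the upper tercile of GC content the median log2 level relative to the peak's mean was 0.20, 0.15 and 0.50 in aged and -0.52, 0.12 and -1.04 in young libraries. In the lower tercile it was 0.28, 0.23 and 0.26 in aged and -0.49, 0.12 and -0.88 in young libraries. Aged library 3 thus differed most between these terciles, and the part of GC content in the age difference was not tested.

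**Figure D4:**
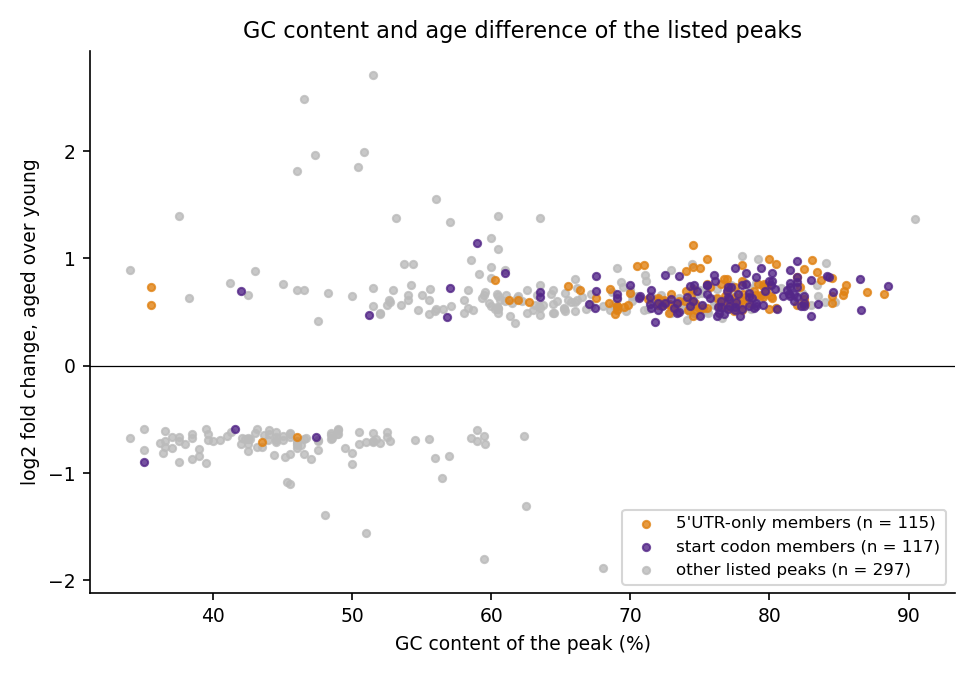
Log2 fold change (aged over young) against GC content for 115 5'UTR-only peaks, 117 start codon peaks and the 297 other listed peaks. No listed peak lies near 0 because the list was selected for an age difference; the 5 members below 0 are all under 50% GC, and no listed peak over 70% GC is below 0.

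DRACH was less frequent than in the other listed peaks, and GGAC was not. DRACH (A, G or T, then A or G, then AC, then A, C or T) was found on the annotated strand in 181 of 232 members (78.0%, exact 95% interval 72.1% to 83.2%), in 90.2% of the other listed peaks and in 93.9% and 91.9% of the start codon and transcription start windows. Peaks were 200 to 522 bases wide. The share was 77.6% on the opposite strand of the members, and 12 members had no match on either strand. GGAC, which overlaps DRACH when followed by A, C or T, occurred in 71.6% of members, 66.0% of other listed peaks and 59.7% and 62.2% of the windows. It occurred in 79.5% of start codon peaks (71.0% to 86.4%) and 63.5% of 5'UTR-only peaks (54.0% to 72.3%), and on the opposite strand in 56.4% and 65.2%. GGACT, which lies within both, occurred in 14.2% of members and 24.9% of other listed peaks, and on the opposite strand in 11.6% and 17.2%. The commonest DRACH form in members was GGACC, with 101 sites, followed by GGACA with 47. Members had a median of 12.5% A, compared with 22.8% in the other listed peaks, and these matches are descriptions of sequence and not of methylated sites.

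In GENCODE M21, 230 of 232 members matched a gene of the same name. The peak centre lay a median of 154 bases downstream of the nearest annotated transcription start (quartiles 68 and 261), and 80 peaks included that start. The annotated start codon lay in 114 of 116 start codon peaks and in none of the 114 5'UTR-only peaks. The centre lay a median of 25 bases before the start codon in start codon peaks and 378 bases before it in 5'UTR-only peaks. These distances were measured along the genome, with introns included. The 5'UTR, measured without introns, was shorter in genes with start codon peaks, with a median of 197 bases against 466 bases. The classes were defined by whether a peak carried a Start codon row. The start codon counts, the distances and this length difference therefore largely follow from the definition. Of the 114 start codons, 86.0% (exact 95% interval 78.2% to 91.8%) had a purine at the third base before the ATG, as in Kcnj16, Kctd4, Hapln2, Heca and Kcnk3 above, compared with 83.6% of all protein-coding genes. This purine was A in 33.3% (24.8% to 42.8%), compared with 47.8% of all genes. A G directly after the ATG was present in 51.8%, compared with 49.6%.

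**Figure D5:**
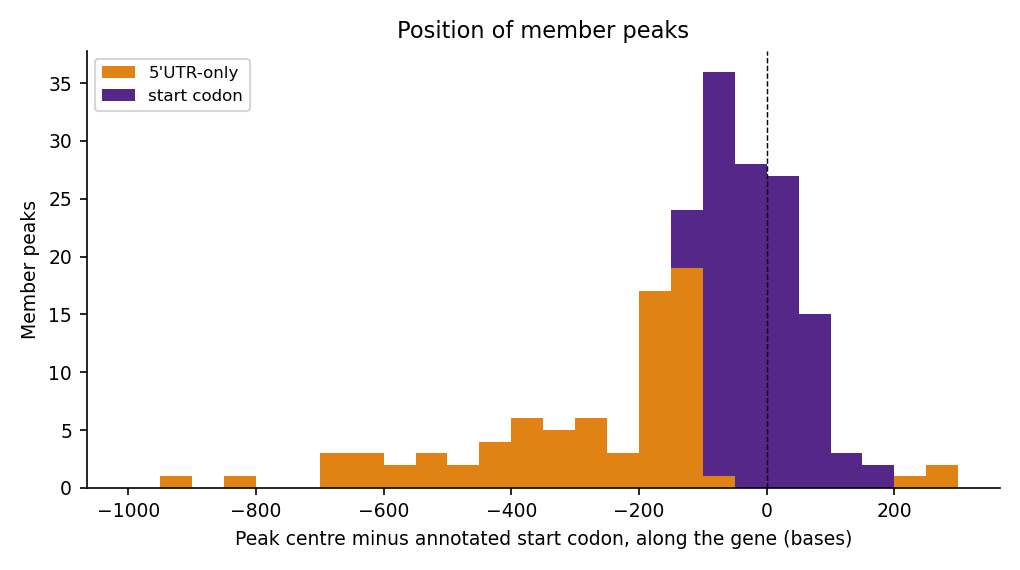
Number of 5'UTR-only (orange) and start codon (purple) peaks by the distance of the peak centre from the annotated start codon along the gene, in bins of 50 bases; negative values lie before the start codon. Of 230 peaks with a distance, 194 lie within the range drawn, 35 lie farther before the start codon and 1 farther after it.

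Some genes had a further listed peak outside the 5'UTR and start codon, and reads of both peaks in the same library could be compared without library sizes. There were 9 such genes, and in 4 of them, chosen here after their values were seen, the other peak had the opposite sign. Both peaks of each gene had been listed for an age difference on these same libraries. In these 4 genes a higher aged ratio was thus largely built into the selection and is no independent evidence. In Trim33 the start codon peak (0.75) stood beside a peak at the stop codon (-0.67), and the ratio of their reads was 2.42, 1.70 and 4.80 in aged and 0.896, 0.995 and 1.01 in young libraries. In Ccdc88a, which encodes the actin-binding protein girdin, the ratio to an exonic peak was 1.02, 0.842 and 1.41 in aged and 0.348, 0.832 and 0.253 in young libraries. In N4bp1 it was 1.14, 0.866 and 1.01 in aged and 0.320, 0.821 and 0.224 in young libraries. The aged ratios exceeded all young ratios in these 3 genes. In Senp6, a SUMO protease, the ratio to a 3'UTR peak was 1.11, 0.541 and 0.933 in aged and 0.251, 0.728 and 0.243 in young libraries, with overlap at aged library 2. The other 5 genes, Arhgap23, Gabbr1, Drap1, Bcl7c and Eml2, had both peaks above 0, and their ratios overlapped between the ages. Within 6 genes with a pair of 5'UTR or start codon peaks, among them Pou3f3 (0.61 and 0.78), Cic (0.75 and 0.88) and Ep300 (0.56 and 0.66), all values were above 0.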

How the data were processed

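Per the labels, m6A immunoprecipitate libraries were prepared from individual hippocampi (3 per age). The build was mm10, and the tools in the submitters' processing notes were STAR 2.5.3a for alignment, MACS2 2.2.1 for peaks, Subread 1.6.4 for counts, bedtools 2.25.0 for annotation, Trimmomatic 0.36, Bowtie2 2.2.7 and SAMtools 1.3. The authors trimmed and filtered reads, aligned them, kept unique alignments, called peaks, recentred them on summits and listed those that differed with age. Their methods name edgeR's likelihood ratio test with fold change and false discovery rate thresholds, and an added option to remove unwanted variation (RUV). Of the alternatives run here, the residual factor comes closest to that option, and the authors' exact setting was not reproduced. The deposited counts are whole reads per peak, not normalised by the authors. The deposited log2 columns hold an average abundance and a fold change, and further columns hold a likelihood ratio, a p-value and an adjusted p-value. Of these results columns, the abundance alone was used. The strand setting of the counting is not given in the sources used here.

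The 862 rows were collapsed to 529 peaks. Library sizes were those at which edgeR's average log2 CPM (prior count 2) equals the deposited log2 abundance (median absolute difference 2.4e-10), since listed peaks hold only a small part of each library. Ages were compared with edgeR 4.0.16 (R 4.3.3) quasi-likelihood F tests over all 529 peaks, two-sided, with Benjamini-Hochberg adjustment at 0.05. Single values were compared by exact permutation over the 6 libraries, also in R. Exact binomial intervals and correlations with GC content used SciPy 1.17.1. The fit was tested on simulated data. Alternatives were other scalings, likelihood ratio and DESeq2 1.42.0 Wald tests, a residual factor, a replicate block, a minimum mean of 100 reads, an adjusted p under 0.01 and leaving out each library. Depth limits precision: members had a median of 500 reads per library (68.7 to 18080 as the mean over libraries). The exact binomial intervals of motif shares are over peaks or start codons, not libraries, and SDs and SEs reflect the spread between libraries.

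Members and gene lists were chosen with earlier results of these data known. Named peaks were all members below 0, the 8 with the largest fold change, the 8 with the smallest p, the 5 with the highest CPM, up to 3 with the smallest p per gene list, and genes named in the study's text; some named peaks are not reported here. Coordinates are as deposited, and sequences were read from GRCm38 as if starts count from 0. Shared replicate numbers did not pair libraries: the correlations of their deviations were -0.19, -0.04 and -0.03.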

Additional observations from a re-analysis of the deposited data

How the results depend on the processing

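The direction of the median log2 fold change of the members held under every alternative run, and their calls depended on young library 2. Members called above 0 were 0 in the test reported and 227 with a residual factor (where 78.6% of all listed peaks were called above 0). They were 1 with the replicate block (background 1.13%) and 0 to 225 when each library was left out (background 77.5% without young library 2). Members called below 0 were 0 in the test reported, 2 with TMM (Rbm6 and Kctd4), 1 with DESeq2 size factors (Kctd4), 5 with the residual factor and 0 to 5 when each library was left out. Of all listed peaks, 87 were called below 0 with TMM and 45 with DESeq2 size factors. The median log2 fold change of 0.64 was 0.19 with column totals, 0.0743 with TMM and 0.0632 with size factors from DESeq2 (these scalings centre the listed peaks themselves), and 0.44 to 0.99 when each library was left out. Members with aged libraries wholly above young libraries were 100 in the main scaling, where 32.1% of all listed peaks, of both directions, were. They were 24 with column totals, 5 with TMM and 8 with DESeq2 size factors. With a minimum mean of 100 reads, an alternative chosen after seeing the data, they were 98. The share over all listed peaks is given for the main scaling alone, so the other counts cannot be set against the list.

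The difference between start codon and 5'UTR-only peaks, 0.02, was -0.0116 with means over peaks and -0.0309 to 0.0536 when each library was left out, with -0.0309 without young library 3. The difference in the start codon share of reads, -0.56 points, was -1.03 to 0.25 when each library was left out, with 0.25 without aged library 3. The difference in the share of listed reads was 3.28 to 6.90 points. Of the 50 named peaks, 0 were called in the test reported, 2 with TMM, 1 with DESeq2 size factors, 50 with the residual factor, 1 with the replicate block and 0 to 49 when each library was left out. With TMM and with DESeq2 size factors the values turned negative in Agap2 (-0.05 and -0.06), Gnai2 (-0.02 and -0.02), Eif6 (-0.02 and -0.02) and Cnr1 (-0.01 and -0.03). The block changed no other member's call, and no library correlated best with the one of its own number. Motif shares were the same with starts counted from 1. With 3 libraries per age, peaks with few reads limit precision, and 4 members averaged under 100 reads.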
